A study of Mus musculus with 2 samples.

Results

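Metallothioneins and zinc handling genes were chosen by name: 9 mouse genes, each with 1 probe whose symbol in the platform's probe annotation equals the gene's name, out of 19321 genes with a probe. They are the metallothioneins Mt1, Mt2, Mt3 and Mt4, the zinc sensor Mtf1, the zinc exporters Slc30a1 and Slc30a2, and the zinc importers Slc39a10 and Slc39a14. The list was drawn up with values of these arrays known, among them the high ratios of Mt1 and Mt2, so the values below are a description and not a test. Of the 9 genes, 8 were above background on both arrays, and Mt4 was above background on neither.

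The series compared gastrocnemius, a calf muscle, of 2 female mice aged 10 weeks. The control was a Wild type:R26-DTA mouse, which by its label carried the diphtheria toxin A allele and no Pdgfra-CreER. The depleted sample was taken from a littermate of genotype Pdgfra-CreER:R26-DTA, in which tamoxifen-activated Cre, made where the Pdgfra promoter is active, turns on the toxin in mesenchymal progenitors, the interstitial cells that carry PDGFRa. Both mice received tamoxifen into the abdomen from 9 weeks of age, daily for 5 days, and muscle was frozen 2 days after the last injection. Each group held 1 array, so no p-value and no animal-to-animal spread can be given, the number of arrays limits the precision throughout, and array, animal, CreER and depletion cannot be told apart. In whole muscle, fewer cells of a type and less RNA per cell cannot be told apart either.

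Metallothioneins are small proteins rich in cysteine that bind zinc and copper in the cytosol. When free zinc rises, the zinc finger factor Mtf1 binds metal response elements near the starts of Mt1, Mt2 and Slc30a1 and raises their transcription, while Slc30 transporters move zinc out of the cytosol and Slc39 transporters move it in. Mt1 and Mt2 also respond to glucocorticoids, inflammatory cytokines and oxidative stress, and in skeletal muscle they are known among the genes that rise in wasting.

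Mt1 and Mt2 lie side by side in a cluster with Mt3 and Mt4, and the regions around their starts are shown because these genes differed together while Mt3 did not. Slc30a1 is shown as a known Mtf1 target outside the cluster. Each sequence runs 5′ to 3′ along the gene's own strand from 250 bases before to 50 bases after a transcript start in RefSeq, build GRCm38.p6. The windows are chr8:94178839-94179138 for Mt1, chr8:94172368-94172667 for Mt2, chr8:94152357-94152656 for Mt3 and chr1:191906531-191906830 for Slc30a1, all on the plus strand. Capitals mark the core of the metal response element, TGCACNC or TGCGCNC, on either strand.
Mt1: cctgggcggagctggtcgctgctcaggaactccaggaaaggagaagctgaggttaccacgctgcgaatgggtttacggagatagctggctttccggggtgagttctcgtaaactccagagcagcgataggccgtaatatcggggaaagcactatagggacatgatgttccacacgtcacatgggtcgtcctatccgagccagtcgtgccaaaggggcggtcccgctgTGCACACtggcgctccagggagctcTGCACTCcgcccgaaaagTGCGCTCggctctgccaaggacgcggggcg
Mt2: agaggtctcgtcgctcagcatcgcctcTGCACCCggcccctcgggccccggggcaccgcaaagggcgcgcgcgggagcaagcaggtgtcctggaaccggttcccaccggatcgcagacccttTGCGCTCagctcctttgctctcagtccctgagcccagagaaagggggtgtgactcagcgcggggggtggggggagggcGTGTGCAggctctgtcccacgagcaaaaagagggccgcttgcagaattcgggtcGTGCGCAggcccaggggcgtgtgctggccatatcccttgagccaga
Mt3: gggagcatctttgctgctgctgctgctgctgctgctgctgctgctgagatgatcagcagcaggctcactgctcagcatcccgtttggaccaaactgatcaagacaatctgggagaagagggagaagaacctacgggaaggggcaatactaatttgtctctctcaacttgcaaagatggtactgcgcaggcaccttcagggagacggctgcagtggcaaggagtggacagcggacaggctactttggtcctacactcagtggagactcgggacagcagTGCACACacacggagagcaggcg
Slc30a1: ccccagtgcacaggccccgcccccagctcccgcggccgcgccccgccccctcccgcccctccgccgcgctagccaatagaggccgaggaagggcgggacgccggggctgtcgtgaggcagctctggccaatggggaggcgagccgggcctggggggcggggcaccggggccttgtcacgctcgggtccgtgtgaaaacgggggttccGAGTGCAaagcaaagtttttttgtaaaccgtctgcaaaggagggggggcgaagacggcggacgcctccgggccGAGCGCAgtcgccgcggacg
The Mt2 window held 4 cores, the Mt1 window 3, the Slc30a1 window 2 and the Mt3 window 1. Matches that overlap were allowed, and a match read on both strands was counted once.

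Among all 32851 RefSeq windows of this length, 25.7% held at least 1 core, 7.11% at least 2, 1.97% at least 3 and 0.517% at least 4. These shares were not adjusted for base composition, and 67.7% of the bases of the Mt2 window and 60.7% of those of the Mt1 window were G or C. In Mt1 the cores began at bases -23, 3 and 21, counted with 1 as the first base of the transcript and -1 as the base before it. All positions refer to the RefSeq start, and whether muscle uses that start was not checked. In Mt2 they began at bases -223, -128, -50 and 5. The Slc30a2 window held 2 cores, the Mt4 window 1, and the windows of Mtf1 and of both Slc39a10 starts 0.

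Motifs of the other known inducers were searched in the same windows on both strands. The glucocorticoid element GNACANNNTGTNC was found in Mt1 from base -94 and in no other window of these genes, and 0.475% of all windows held it. The antioxidant element TGACNNNGC was found in Mt2 from base -79 and in Slc30a1 from base -82, against 12.4% of all windows. The STAT element TTCNNNGAA was found at 1 of the 2 Slc39a10 starts, from base -82, against 8.3% of all windows. A match is a run of letters and was not tested as a binding site. Elements farther away on either side of these RefSeq starts are not covered, so a motif missing from a window may lie near it.

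**Figure D1:**
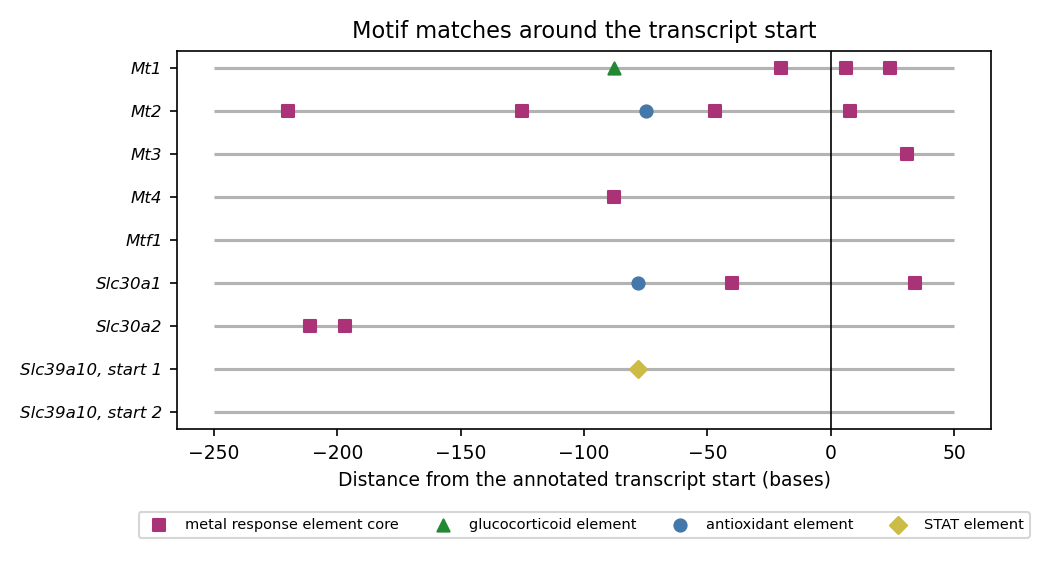
Motif matches from 250 bases before to 50 bases after the RefSeq transcript start, in bases, 1 line per start for the 8 genes with a window. Squares are cores of the metal response element, of which Mt2 has 4, Mt1 has 3 and Mtf1 and Slc39a10 have 0.

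Genes with several cores were counted over the whole array. Of 463 measured genes with at least 3 cores in a window, 3 were at least 2-fold higher in depleted muscle, which is 0.648% against 0.517% of the 14493 measured genes with any window. These 3 were Mt1, Mt2 and Retreg1, a receptor for the breakdown of endoplasmic reticulum. Mt1 and Mt2 were listed with their high ratios known, so nothing is read from the share of 0.648%. Of 72 measured genes with the glucocorticoid element, 3 were at least 2-fold higher, beside the 0.517% of measured genes with any window. They were Mt1, the ubiquitin ligase Trim63 and the thioredoxin-binding protein Txnip. Mt1 was again known to be high beforehand, and the part of this element in these ratios was not tested.

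In depleted muscle the Mt1 and Mt2 signals were several-fold higher than in control. The Mt1 spot (probe M300007885) read 1646 intensity units in control and 10007 in depleted muscle. The Mt2 spot (probe M200009417) read 1189 in control and 6974 in depleted muscle. Blank spots averaged 36.3 (control) and 37.0 (depleted), so both genes were measured well clear of background in both animals, and neither neared the brightest spots of 51523 and 50836.

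After background correction and quantile normalization, Mt1 stood at a log2 level of 10.91 in control and 13.20 in depleted muscle, a log2 ratio of 2.28, or 4.87-fold higher. Mt2 went from a log2 level of 10.47 to 12.57, a ratio of 2.10, or 4.3-fold higher. In the authors' deposited table Mt1 was at 2048.9 and 9356.8, which is 4.57-fold, and Mt2 at 1467 and 6511.1, which is 4.44-fold. Mt1 and Mt2 are closely related paralogs and the probe sequences were not used here. Signal may therefore be shared between their probes, and the genes are not counted as independent measurements.

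Among 18498 genes above background on at least 1 array, 7 had a higher ratio than Mt1 and 12 a higher ratio than Mt2. These ranks differed with the background treatment: 38 and 44 genes were higher in the authors' processed values, 29 and 46 with the blank spots subtracted, and 62 and 311 with the local background column subtracted. At the 2-fold threshold, 2 of the 8 measured genes of this group were higher in depleted muscle, Mt1 and Mt2, against 0.497% of all genes, and 0 were lower, against 0.427%. Because the list was proposed with these ratios known, nothing is read from that share. At 4-fold, a threshold looked at after the values had been seen, 15 genes were higher, 0.0811% of all, and Mt1 and Mt2 were among them.

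**Figure D2:**
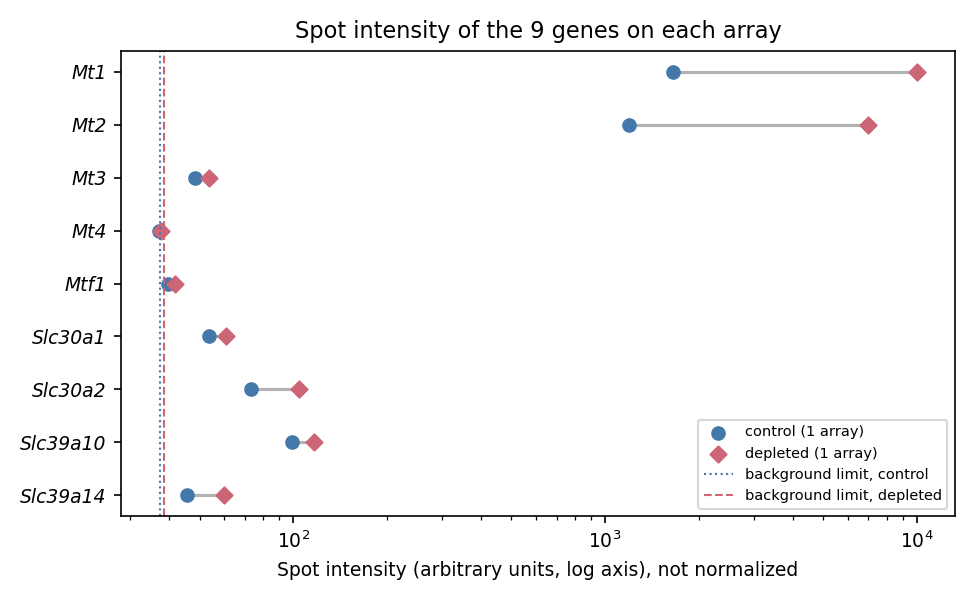
Spot intensity in arbitrary units on a log axis, before normalization, for each of the 9 genes. Circles are the control array and diamonds the depleted array, each a single spot, and vertical lines are the background limits. Mt1 (1646 to 10007) and Mt2 (1189 to 6974) moved far apart, and Mt4 lay just below the limits. Probes differ in efficiency, so brightness is not compared between genes.

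The other metallothioneins did not follow. Mt3, the form known from brain, read 48.4 in control and 53.8 in depleted muscle, a log2 ratio of 0.010 after normalization. In the authors' deposited table it was at 15.5 and 15.8. Mt4, the form of stratified epithelia, read 37.1 in control and 37.6 in depleted muscle, below the background limits of 37.4 and 38.5, and no ratio was formed. Thus 2 genes of the cluster were higher while Mt3, measured on both arrays, was nearly level.

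The genes on either side of the cluster were also near level. In chromosome order, Ogfod1 and Bbs2 precede the metallothioneins, and Nup93 and Slc12a3 follow them. Bbs2, a protein of the primary cilium, was at a log2 ratio of 0.05, and Nup93, a nuclear pore protein next to Mt1, was at 0.10. Ogfod1 was at 0.0075 and Slc12a3 at -0.013, both at spot intensities under 42. The high ratios on this stretch were those of Mt1 and Mt2.

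**Figure D3:**
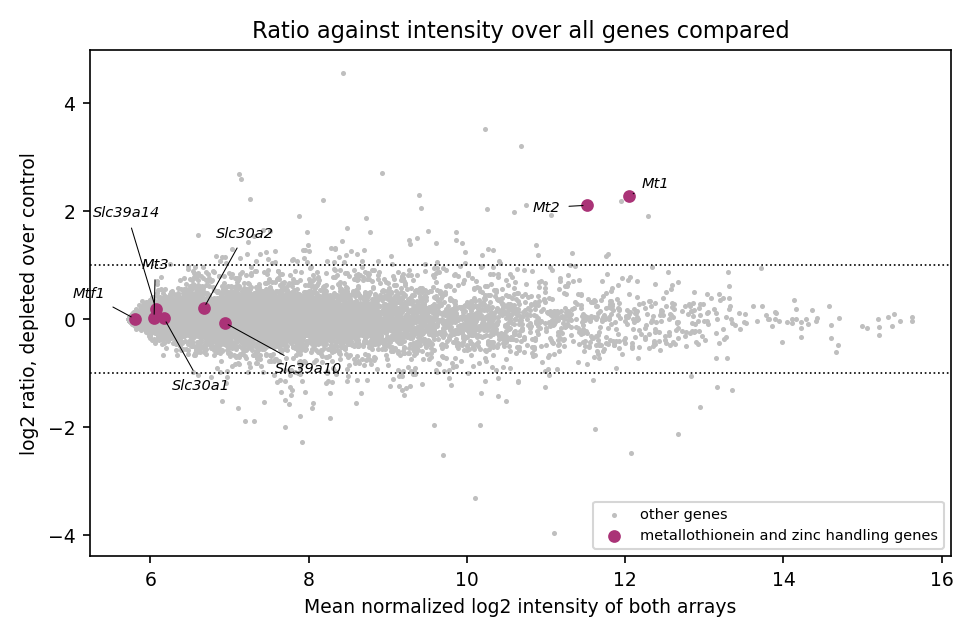
Log2 ratio, depleted over control, against the mean normalized log2 intensity of both arrays for 18498 genes in grey, with the 8 measured metallothionein and zinc handling genes in colour and dotted lines at 2-fold. Mt1 (2.28) and Mt2 (2.10) lie at the upper edge among bright genes, and the other 6 lie between -0.07 and 0.20.

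Mtf1, the zinc-sensing factor that drives Mt1 and Mt2, was dim and level. Its spot read 39.7 in control and 41.8 in depleted muscle, just over the background limits, and the log2 ratio was 0.0028. The authors' deposited table gave 4.5 and 4.6. Transcript level says nothing of the factor's activity, which zinc binding sets.

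Slc30a1, the exporter of the plasma membrane and a known Mtf1 target like Mt1 and Mt2, was level too. It read 53.5 in control and 60.9 in depleted muscle, a log2 ratio of 0.014, with 21.9 and 22.5 in the authors' deposited table. Slc30a2, an exporter into vesicles that is best known from the mammary gland, read 73.2 and 104.4, a log2 ratio of 0.20. Its values in the authors' deposited table were 47.1 and 63.3, or 1.34-fold higher. With the scanner's local background column subtracted, the ratio of Slc30a2 was 1.07, past 2-fold. Slc39a10, an importer that Mtf1 is known to repress when zinc is high, read 98.7 and 116.4. Its log2 ratio was -0.07, and the authors' deposited table gave 79.4 and 74.6. Scaling both arrays to the median instead put Slc39a10 at 0.08, so its direction depends on the scaling.

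Slc39a14, an importer of zinc, iron and manganese that inflammation is known to raise, differed more than its normalized ratio shows. Its spot read 45.7 in control and 60.1 in depleted muscle, which is 9.46 and 23.1 units over the blank spots. The main log2 ratio was 0.19, since the offset of 50 added before taking logs draws dim genes toward 0. With the blank spots subtracted the ratio was 0.86, and in the authors' deposited table the gene went from 12.1 to 21.7, or 1.79-fold. There, 9.17% of 19191 probes were at least 1.5-fold higher, so passing 1.5-fold was not rare. The share of probes at 1.79-fold or more was not counted.

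In the normalized values, 0 zinc transporters of either family differed by 1.5-fold, while over all genes 1.97% passed 1.5-fold upward and 1.52% downward. Slc39a14 passed 1.5-fold in the authors' deposited table and with the blank spots subtracted, and Slc30a2 passed 2-fold with the local background column subtracted, as given above. All 10 Slc30 genes and all 14 Slc39 genes were above background on at least 1 array, all but Slc30a3 on both. The 24 genes had a median log2 ratio of -0.022, beside -0.0035 over all genes, with 9 higher and 15 lower. Their ratios ran from -0.42 to 0.20. The lowest was Slc30a9, a mitochondrial exporter, with spots of 405.5 and 404.6 and a log2 ratio of -0.42. The median probe read 53.3 in control and 59.8 in depleted muscle, so equal raw spots give a normalized ratio below 0. Among importers Slc39a5 was lowest at -0.20, with spots of 121.8 and 130.7, and Slc39a14 was highest.

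**Figure D4:**
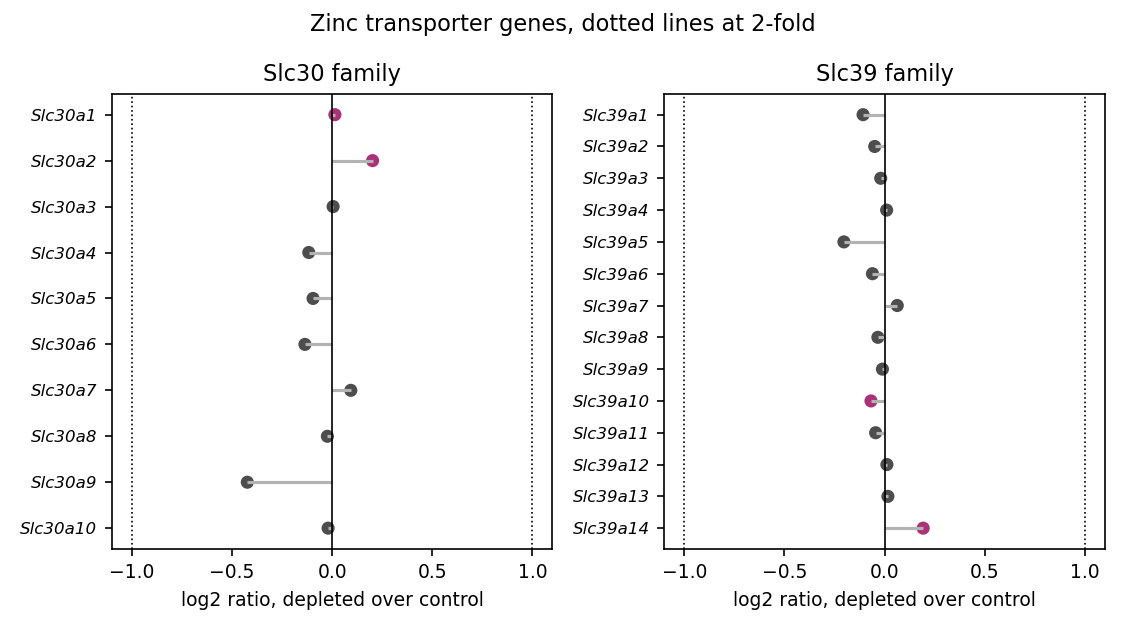
Log2 ratio, depleted over control, of the 10 Slc30 genes and 14 Slc39 genes, 1 point per gene from its brightest probe. Coloured points are Slc30a1, Slc30a2, Slc39a10 and Slc39a14, and dotted lines mark 2-fold, which no gene reached in this setting: the ratios run from -0.42 (Slc30a9) to 0.20 (Slc30a2).

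Other genes reported as Mtf1 targets included a pair that was higher. Of 6 measured, 4 were higher and 2 lower, and 2 passed 1.5-fold upward and 0 downward, with a median of 0.30. Over all genes 1.97% passed 1.5-fold upward and 1.52% downward, with a median of -0.0035. The lower ones were Selenow (-0.20) and Selenoh (-0.27), named after their values had been seen. Slc40a1, the iron exporter ferroportin, read 132.4 in control and 311.5 in depleted muscle, a log2 ratio of 0.81. Gclc, the catalytic subunit that makes the glutathione precursor, read 93.7 and 198.6, a ratio of 0.67. Both are also known to respond to other signals than zinc, and Slc40a1 also stands in the iron list and Gclc in the Nrf2 list below.

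Lists for other metals had medians near that of all genes. Over all genes 1.97% passed 1.5-fold upward and 1.52% downward, and 0.497% passed 2-fold upward and 0.427% downward. Of 12 copper handling genes measured, 0 passed 1.5-fold upward and 1 downward, and 0 were at least 2-fold different, with a median of -0.030. Commd1, a regulator of copper export, was at -0.60 and the ferroxidase Cp at 0.37. Of 14 iron handling genes, 3 passed 1.5-fold upward and 1 downward, and 1 passed 2-fold downward and 0 upward, with a median of -0.0093. Tfrc, the transferrin receptor, read 244.9 in control and 94.7 in depleted muscle, a log2 ratio of -1.54, and the mitochondrial iron importer Slc25a28 was at 0.84. The others past 1.5-fold upward were Slc40a1, given above, and the ferritin light chain Ftl1 at 0.65.

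Genes of pathways that can induce metallothioneins without zinc were counted next, beside all genes, of which 8768 of 18498 were higher, 1.97% at least 1.5-fold and 0.497% at least 2-fold. Of 12 glucocorticoid receptor targets measured, 10 were higher, 6 at least 1.5-fold and 2 at least 2-fold, with a median of 0.56. Pdk4, a brake on pyruvate oxidation, read 504.8 in control and 2908 in depleted muscle, a log2 ratio of 2.03, and Ddit4, an inhibitor of mTORC1, was at 1.39. Tsc22d3 (-0.23) and Sgk1 (-0.29), also targets of this receptor, were lower. Of 10 genes of the IL-6 and STAT3 response, 8 were higher, 3 at least 1.5-fold and 1 at least 2-fold, with a median of 0.20, the kinase Pim1 at 1.29 and Junb at 0.79. Socs3, the feedback inhibitor of STAT3, read 694.0 and 722.4, a log2 ratio of -0.39. Of 10 Nrf2 targets, 9 were higher, 4 at least 1.5-fold, and 1 gene passed 2-fold in each direction, with a median of 0.47. The sulfiredoxin Srxn1 was at 1.18 and the glutathione transferase Gsta4 at -1.0. Tsc22d3, Sgk1 and Socs3 were named after their values had been seen. The members of each list did not all go the same way, and the part of these pathways in the metallothionein difference was not tested.

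Genes with the pair of levels most like that of Mt1 were sought among all genes above background on both arrays, by the distance between the normalized log2 levels over the 2 arrays. Closest to Mt1 was Retreg1 at a distance of 0.17, with spots of 1586 in control and 9418 in depleted muscle and a log2 ratio of 2.17. The predicted gene Gm4802 followed at 0.43. The stretch-responsive Ankrd2, the mitophagy receptor Bnip3 and the lysosomal protease Ctsd came next, at 0.85, 0.90 and 1.02. Closest to Mt2 were Retreg1 (0.60), Txnip (0.66), Lyz2 (0.68), Ankrd2 (0.74) and Bnip3 (0.74). Txnip read 927.8 and 4908, a log2 ratio of 1.92, and the lysozyme Lyz2 of macrophages read 1398 and 4658, a ratio of 1.22. Spot brightness depends on each probe's efficiency, so this likeness describes spots on 2 arrays and not transcript abundance.

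The label and the makeup of the tissue were checked with marker genes. Over all 18498 genes, 8768 had ratios above 0 and 9695 below 0. Of all genes 1.97% passed 1.5-fold upward and 1.52% downward, and 0.497% passed 2-fold upward and 0.427% downward. Summed spots are raw, and the median probe read 53.3 in control and 59.8 in depleted muscle. The sums are thus not on an equal scale between arrays, whereas the log2 ratios are normalized. All 14 markers of skeletal muscle fibres were above background on both arrays, with summed spots of 404071 in control and 387468 in depleted muscle, a median log2 ratio of -0.12, and the lowest ratios in Casq1 (-2.03) and Pvalb (-1.25). Pdgfra itself read 250.9 and 161.2, a log2 ratio of -0.94. All 15 measured mesenchymal progenitor markers had ratios below 0, 7 of them at least 2-fold lower, with a median of -0.97. Lum was at -1.84 and Col1a2 at -1.42. Dpp4 (-0.023) and Tcf4 (-0.047), named after their values were seen, were nearly level. Summed spots of these markers were 19717 and 13126, of which Gsn gave 9891 and 5882. All 12 macrophage markers had ratios above 0, 7 at least 1.5-fold and 3 at least 2-fold, with a median of 0.72. Their summed spots were 3233 and 8958, with Lgals3 at 1.32 and Ctss at 1.27. Csf1r (0.0039), Adgre1 (0.12) and Fcgr1 (0.16), named after their values were seen, differed little. Neutrophil markers (7 of 10 higher, median 0.030, summed spots 688.3 and 1003, Lcn2 1.54, S100a8 0.34, and, named after its value was seen, S100a9 -0.23), endothelial markers (8 of 10, 0.06, 5243 and 7358, Cldn5 0.83, Pecam1 0.40) and adipocyte markers (6 of 9, 0.07, 5086 and 7113, Cidec -0.32, Adipoq 0.28) moved less. Fabp4 stands in both the endothelial and the adipocyte list, and its spots of 3877 and 5416 make up most of both sums. The log2 ratio of Fabp4 was 0.0024. Macrophages and the remaining cells can make Mt1 and Mt2, and the part of these marker shifts in the metallothionein values was not tested.

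Control spots give the scatter within an array, which does not cover the spread between arrays or animals. The 24 spots of each of 2 positive controls had SDs of 0.16 and 0.17 log2 units in control and 0.11 and 0.09 in depleted muscle. What these controls detect is not given in the sources used here. Their mean spots were 2.12-fold and 1.74-fold brighter on the depleted array, and 1.60-fold and 1.28-fold on the authors' scale, whose part in the metallothionein values was not tested. Over 1102 genes with at least 2 probes above background, the log2 ratios of the brightest 2 probes differed by a median of 0.10 and by 0.50 at the 95th percentile. Of the 4 among these genes that were at least 2-fold higher by the brightest probe, 2 were so by the second probe too. Each metallothionein had 1 probe, so no such check exists for it.

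Processing left the Mt1 and Mt2 differences in place. Over the main setting and 11 alternatives, the Mt2 log2 ratio ran from 2.05 to 2.41. Mt1 ran from 2.10 to 2.47, apart from 4.27 with the local background column subtracted, which read 1408 beside the control spot of 1646. Mt3 stayed between -0.13 and 0.05 and Mtf1 between -0.12 and 0.04, each with 10 of 12 values above 0. Slc30a1 ran from 0.014 to 0.24, and neither it nor Slc39a14, from 0.17 to 0.86, reached 2-fold in any of them.

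**Figure D5:**
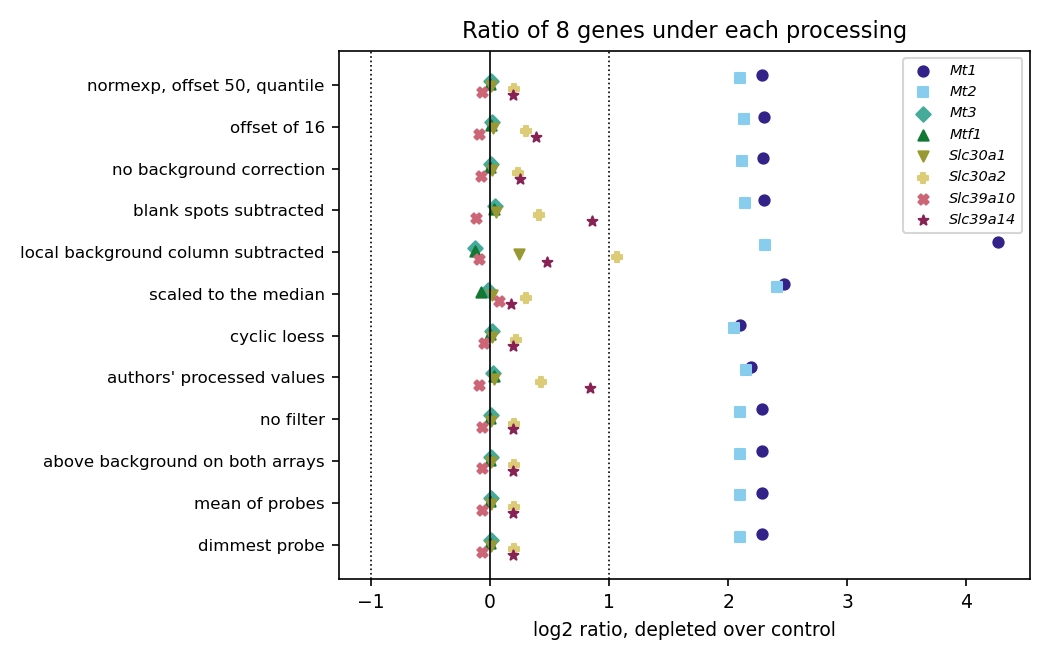
Log2 ratio, depleted over control, of the 8 measured genes under the main setting (top) and 11 alternatives, 1 symbol per gene, with dotted lines at 2-fold. Mt1 and Mt2 stay right of 2 in each, and Slc30a2 passes 2-fold only with the local background column subtracted (1.07).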

How the data were processed

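Expression was measured on 2 single-colour arrays, Cy5-labelled amplified RNA of 1 control and 1 depleted gastrocnemius. The deposited scanner values are intensities: each spot's median pixel at 635 nm, joined from 3 scan gains without background subtraction, per the file headers. The authors' table of processed intensities is, on each array, a straight line of the spot with a slope of 1.27 (control) or 0.939 (depleted) after about the mean of the blank spots is subtracted. Its median is 25 on both arrays. The submitters' genome build and scanner are not named in the labels or headers.

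Spots were corrected with normexp (limma 3.58.1, R 4.3.3, offset 50), then log2-transformed, and 23473 probes were quantile-normalized. Ratios are depleted over control. Background was the mean of 2736 blank spots plus 2 SD, 37.4 on the control and 38.5 on the depleted array, and 92.6% and 92.8% of probes exceeded it. A gene needed 1 array above it, and a value below it was raised to the lowest value above it. A gene's brightest probe was used. Symbols came from the platform annotation, replaced by the RefSeq symbol wherever the probe's Entrez gene identifier had one. Of the probes, 20690 had 1 symbol and 2783 none. Tables used Python 3.11.15, numpy 2.4.6, pandas 2.3.3 and matplotlib 3.10.9.

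No test was possible with 1 array per group. Members, lists, alternatives and naming rules were chosen with earlier results of these data known. The rule named all 9 members, zinc transporters past 1.5-fold or otherwise the top 2 of each family, the top 2 of each other list by size of ratio, the 5 genes closest to Mt1 and to Mt2, Pdgfra, and 2 neighbours on each side of the cluster.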

Additional observations from a re-analysis of the deposited data

How the results depend on the processing

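No paired analysis was possible because there was a single array per group, and no array could be left out. In the main setting 92 genes were at least 2-fold higher and 79 lower, so 53.8% were higher. The counts of higher and lower genes were 504 and 360 after subtracting the blank spots, 1937 and 2015 after subtracting the local background column, 217 and 38 with scaling to the median (85.1% higher), and 478 and 320 in the authors' processed values, with those under 1.8 raised to that value. An offset of 16 gave 164 higher genes. Thresholds of 1.5-fold (364 and 282) and 3-fold (27 and 17) changed the counts by construction, and the cause was not tested for the others. The members at least 2-fold higher were Mt1 and Mt2 in each setting and at each threshold, joined by Slc30a2 with the local background column subtracted, and 0 were lower. The zinc transporter median ran from -0.12 to -0.0092, below 0 in all 13 settings. It was not below all genes in each: with scaling to the median it was -0.0092, beside -0.022 over all genes. Across probes, the local background column ranks much as the spot itself does (Spearman 0.941 in control, 0.972 in depleted muscle). The median over all genes ran from -0.022 to 0.040. Signal over background limits Mtf1, Mt3 and Slc39a14, which lay 3.49, 12.2 and 9.46 units over the blanks in control muscle.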
